A study of Homo sapiens with 6 samples.

Results

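Genes of regulated peptide secretion were followed in NCI-H69 cells, a neuroendocrine small cell lung cancer line with amplified MYCN, after 48 h with the vehicle DMSO or with 20 µM GNF5. The group comprises 44 genes chosen by name for their function, of 60671 genes counted: 6 granins and relatives, 5 genes of prohormone processing, 13 neuropeptides, 8 genes of the vesicle membrane and the synaptotagmin family, 9 SNARE, docking and priming genes, and 3 other neuronal genes. GNF5 is an allosteric inhibitor that holds the ABL kinases inactive through their myristoyl pocket. The cells carry the label WT in both groups, and each group holds 3 RNA sequencing libraries of this cell line. The label of each treated sample gives the dose in µM, whereas the treatment note gives the same figure in millimolar. Nothing in the labels tells whether replicates came from separate cultures. The p-values therefore measure only the spread between these libraries, which may be technical.

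Neuroendocrine cells store peptides in dense core granules and release them when calcium rises. Granins are acidic proteins that help granules form and are themselves cut into peptides. Prohormones are cleaved at pairs of basic residues by the convertases PCSK1 and PCSK2, trimmed by the carboxypeptidase CPE and often amidated by PAM. Release needs RAB3 proteins and their effectors for docking, UNC13 and CADPS proteins for priming, the SNAREs SNAP25, STX1A and VAMP2 for fusion, and synaptotagmins as calcium sensors. Chromogranin A and synaptophysin are standard diagnostic stains of small cell lung cancer, and gastrin-releasing peptide is a known growth factor of these tumours.

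Library totals ran from 46148701 to 60697602 counts. Levels are CPM, counts relative to the library total after TMM scaling, with the SD over 3 libraries, and a positive log2 fold change, given with its standard error (SE), means more RNA with GNF5. A gene is said to have risen or fallen where edgeR's quasi-likelihood test gave an adjusted p under 0.05. Markers of neuroendocrine small cell lung cancer were abundant, with INSM1 at 1403 ± 34.1 and 1464 ± 45.8 CPM and NCAM1 at 483 ± 11.1 and 728 ± 10.5 with DMSO and GNF5. Of the 10 genes in that list, 5 rose, 3 fell and 2 were not called, beside 31.0% and 30.7% of all tested genes. Their log2 fold changes ran from -0.69 to 0.67. The 5 markers of other subtypes of this cancer summed to 4.69 to 5.67 CPM with DMSO and 3.47 to 4.37 with GNF5. Among markers of other cells, the summed level of 6 fibroblast genes was 120.2 to 126 CPM with DMSO and 64.8 to 72.0 with GNF5, nearly all of it COL1A2, while COL3A1 was at 0 and DCN and LUM averaged below 0.4 CPM in each group. The 5 leukocyte genes summed to 1.56 to 1.80 CPM with DMSO and 0.170 to 0.573 with GNF5, carried by PTPRC, with CD3E at 0. Lung epithelium genes (4) summed to 3.19 to 3.66 and 2.59 to 2.93 CPM, mostly AGER, and erythroid genes (3) stayed below 0.4 CPM. The part of these markers in the results below was not tested.

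With GNF5, 5 of the 6 granins and relatives and 7 of the 9 SNARE, docking and priming members rose, most by modest amounts, whereas 4 of the 6 neuropeptide members that could be tested and 3 of the 5 processing members fell. Of the 44 genes, 37 passed the filter on low counts, and 7 neuropeptide genes did not. Among those 37, 21 rose and 11 fell, against 31.0% of all 20734 tested genes that rose and 30.7% that fell, or 61.6% in either direction. The median log2 fold change was 0.17 for the 37 genes and 0.01 for all tested genes. CARTPT reached the filter level of 0.175 CPM in the DMSO libraries only, so a difference was built into its passing, and NPY reached it in all GNF5 but only 2 DMSO libraries. In the 32 genes with a mean log2 CPM of at least 1, 19 rose and 8 fell (59.4% and 25%), beside 38.2% and 35.4% of the 13954 genes at that level. The groups did not overlap in 32 of the 37 genes, which were those called, against 65.9% of all tested genes. Most changes were small. Against a 1.5-fold change, 4 genes were higher (SCG2, SCG5, VAMP2 and NPY) and 4 lower (GRP, NMB, CARTPT and SYT7), beside 5.98% and 7.52% of all tested genes. At least 2-fold changes among the called genes were seen for SCG2 and NPY upward (4.95% of all tested genes) and for GRP, NMB, CARTPT and SYT13 downward (6.69%). In these bulk libraries, fewer cells of a type and less RNA per cell cannot be told apart.

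**Figure D1:**
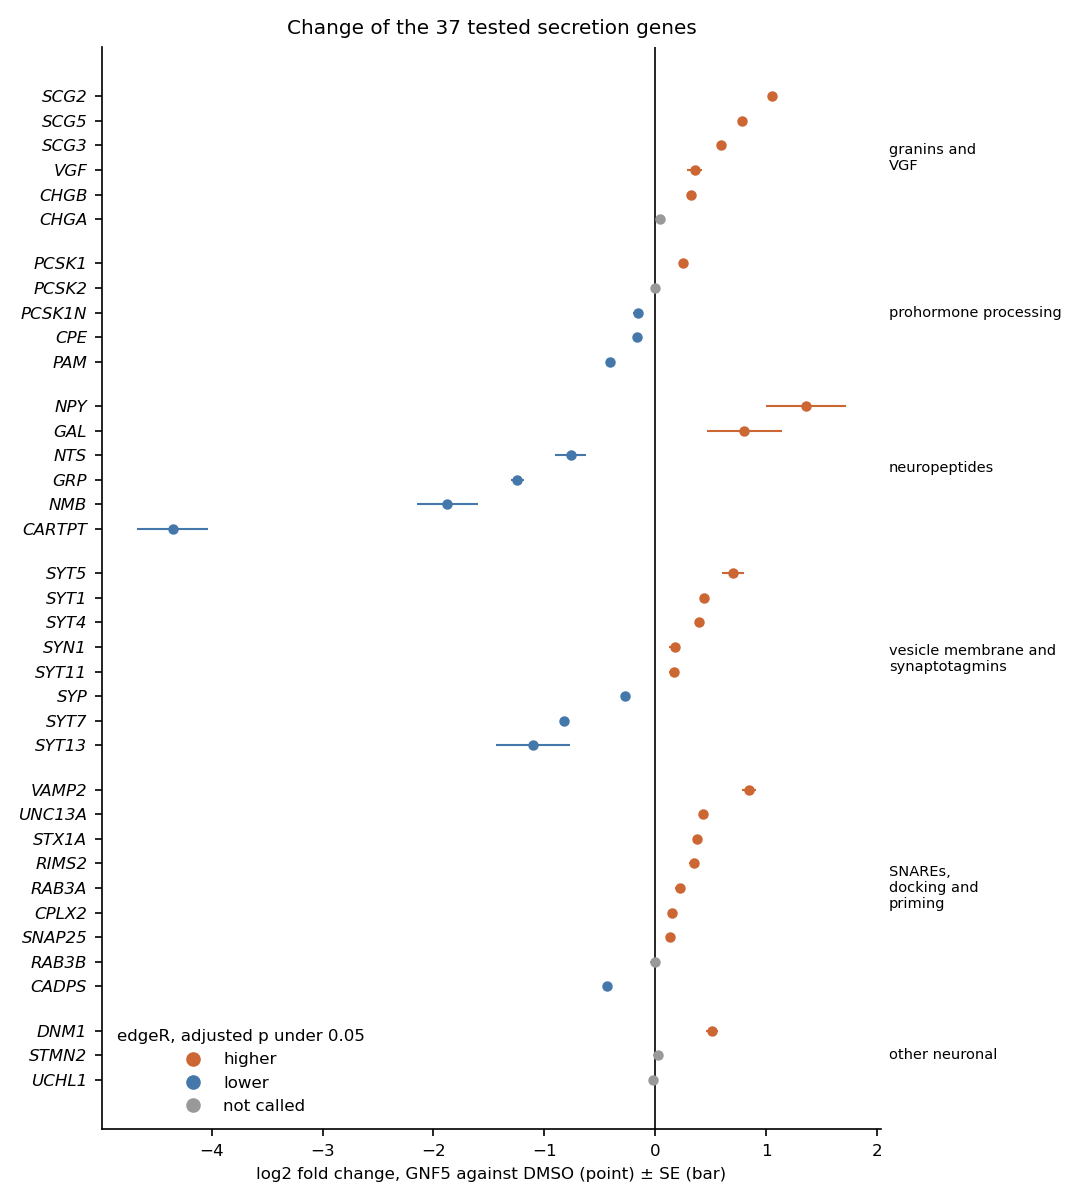
Log2 fold change of GNF5 against DMSO with its SE for the 37 tested genes, grouped by role; orange points were called higher, blue lower and grey not called. All 6 granins and relatives lie right of 0, while 4 of the 6 tested neuropeptides lie left of it, down to CARTPT at -4.35.

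Compared per length, many of these genes were among the abundant RNAs of the cell line. Of the 44 genes, 19 lay at or above the 90th percentile of all tested genes with DMSO, in CPM per kilobase of summed exon length. UCHL1, a ubiquitin hydrolase that is plentiful in neurons, ranked first of the 44 with 171 ± 2.12 CPM per kilobase. CHGB (87.4 ± 0.597), CHGA (81.6 ± 1.2), SCG2 (80.6 ± 0.635) and VGF (70.5 ± 2.36) followed, and in that order CHGA and SCG2 did not differ beyond their spread. GRP had a level of 51.2 ± 1.95 CPM per kilobase, near SCG3 (55.1 ± 0.709) and SYT4 (54.9 ± 0.959). Among the 44 genes, SCG2 moved with GNF5 from place 4 to place 2 at 167 CPM per kilobase. GRP moved from place 9 to place 20 at 21.7. At the low end of the tested members with DMSO, SYT13, GAL and NPY had levels of 0.111, 0.233 and 0.242 CPM per kilobase. The 7 untested members all lay below GAL. Exon length is summed over all transcripts of a gene in the annotation, so the level of a gene with many transcripts is understated.

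**Figure D2:**
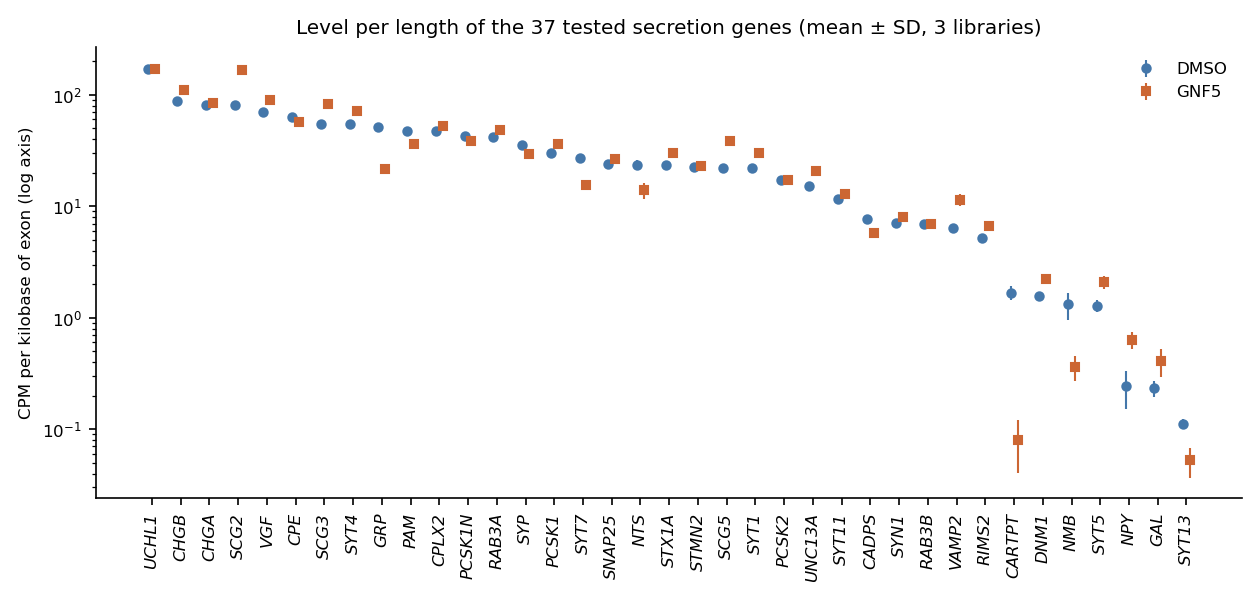
Level in CPM per kilobase of exon on a log axis for the 37 tested genes, ordered by the DMSO mean (blue circles) with GNF5 beside it (orange squares); bars are the SD over 3 libraries. UCHL1 is at 171 CPM per kilobase with DMSO, and CARTPT shows the widest gap between the groups.

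Granins rose except for CHGA. Of 6 genes, 5 rose and 0 fell, with a median log2 fold change of 0.48, beside 31.0% and 30.7% of all tested genes. SCG2 (ENSG00000171951, chromosome 2, 223596940 to 223602361, GRCh38), which encodes secretogranin II, the precursor of secretoneurin, had 209, 209 and 206 CPM in the DMSO libraries and 445, 432 and 418 in the GNF5 libraries. The groups were far apart, and the gene rose 2.08-fold (log2 fold change 1.05 ± 0.0328, edgeR adjusted p = 5.39e-21). SCG5 (ENSG00000166922, chromosome 15, 32641676 to 32697098) encodes 7B2, the chaperone that PCSK2 needs to mature. Its levels were 50.4, 46.5 and 49.0 CPM with DMSO and 86.4, 83.8 and 81.6 with GNF5, a 1.73-fold rise (log2 fold change 0.79 ± 0.042, edgeR adjusted p = 1.27e-15). SCG3 (ENSG00000104112, chromosome 15, 51681492 to 51721026), which tethers chromogranin A to granule membranes, had 174, 177 and 173 CPM with DMSO and 265, 262 and 266 with GNF5, and rose 1.51-fold.

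CHGB, VGF and CHGA moved less. CHGB (ENSG00000089199, chromosome 20, 5911510 to 5925353), encoding chromogranin B, had 392, 387 and 387 CPM in DMSO libraries and 467, 504 and 487 in GNF5 libraries, a log2 fold change of 0.32 ± 0.0329. VGF (ENSG00000128564, chromosome 7, 101162509 to 101165569), a neurotrophin-induced granule protein and peptide precursor, ranged from 182 to 193 CPM with DMSO and from 215 to 264 with GNF5. Its rise of 0.36 ± 0.0683 on the log2 scale passed (edgeR adjusted p = 0.00161), with GNF5 replicate 1 the nearest to the DMSO libraries. CHGA (ENSG00000100604, chromosome 14, 92923150 to 92935285), encoding chromogranin A, had 243, 247 and 251 CPM with DMSO and 234, 265 and 263 with GNF5. GNF5 replicate 1 lay below every DMSO library and the other GNF5 libraries above them, and the difference did not pass (0.04 ± 0.0383, edgeR adjusted p = 0.353). Without GNF5 replicate 1 it passed with an increase of 0.10 (edgeR adjusted p = 0.00946, the lowest of its alternatives, which reached 1). The summed level of the 6 genes per length was 397 ± 2.51 CPM per kilobase with DMSO and 572.5 ± 12.7 with GNF5.

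**Figure D3:**
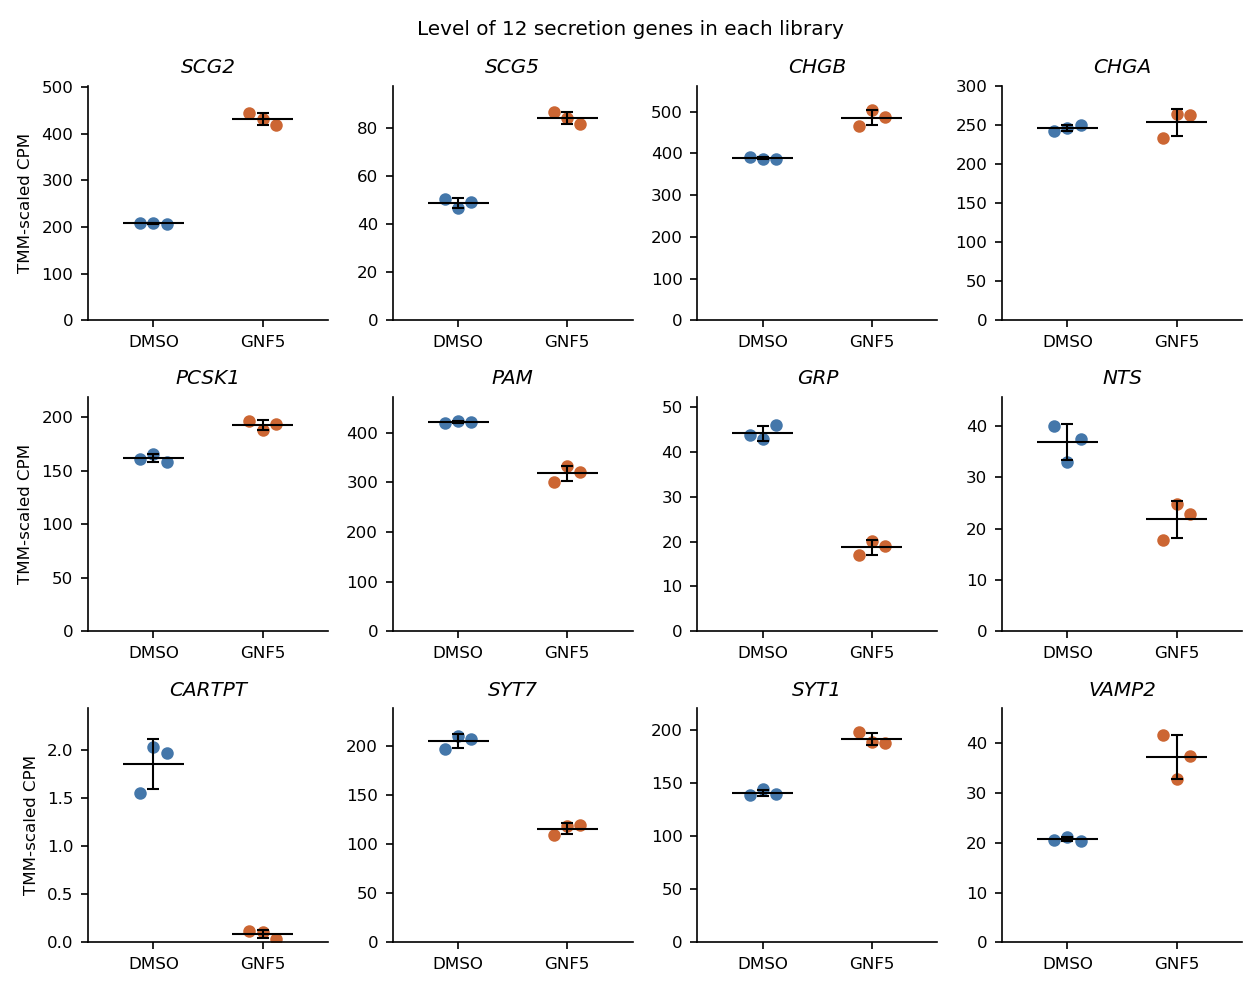
TMM-scaled CPM of 12 secretion genes in each library (points), with the mean (wide line) and SD (bar) of 3 libraries per group, on axes that start at 0. The groups overlap only for CHGA, which was not called. GRP, NTS, CARTPT, PAM and SYT7 are lower with GNF5, and SCG2, SCG5, CHGB, PCSK1, SYT1 and VAMP2 are higher.

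Processing genes mostly fell, by small amounts. Of 5 genes, 1 rose and 3 fell (median log2 fold change -0.15), beside 31.0% and 30.7% of all tested genes. PAM (ENSG00000145730, chromosome 5, 102753981 to 103031105), the enzyme that amidates peptide ends, had 419.6, 423 and 421 CPM with DMSO and 301, 332 and 320.3 with GNF5. The GNF5 libraries spread more than the DMSO ones but all lay below them, and PAM fell 1.32-fold (log2 fold change -0.41 ± 0.0345, edgeR adjusted p = 3.56e-11). CPE (ENSG00000109472, chromosome 4, 165361194 to 165498547), which removes basic residues after cleavage, had 206, 187 and 199 CPM with DMSO and 169.8, 180.1 and 179 with GNF5. The gap between the groups was narrow, and CPE fell by 0.17 on the log2 scale (SE 0.037, edgeR adjusted p = 0.000327). PCSK1N (ENSG00000102109, chromosome X, 48831096 to 48835610) encodes proSAAS, an inhibitor of PCSK1. It ranged from 56.3 to 59.6 CPM with DMSO and from 49.1 to 54.1 with GNF5 (log2 fold change -0.15 ± 0.0447, edgeR adjusted p = 0.00472).

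The convertases differed from these. PCSK1 (ENSG00000175426, chromosome 5, 96390333 to 96434143) had 161, 166 and 158 CPM with DMSO and 197, 188 and 193 with GNF5, with no overlap, and rose 1.19-fold (log2 fold change 0.25 ± 0.0337, edgeR adjusted p = 1.8e-07). PCSK2 (ENSG00000125851, chromosome 20, 17226107 to 17484578) lay between 119 and 124 CPM in all 6 libraries and did not pass (0.00 ± 0.0348, edgeR adjusted p = 0.967). Per length, the 5 genes summed to 201 ± 3.94 CPM per kilobase with DMSO and 184.5 ± 4.50 with GNF5.

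GRP and NTS, which had the highest levels per length among the 13 neuropeptide members, fell. Of 13 genes, 6 passed the filter, of which 4 fell and 2 rose (median -1.0), beside 30.7% and 31.0% of all tested genes. CARTPT, among those that fell, passed the filter through the DMSO libraries alone. GRP (ENSG00000134443, chromosome 18, 59220158 to 59230774), encoding gastrin-releasing peptide, the mammalian relative of bombesin, had 43.6, 42.7 and 46.0 CPM with DMSO and 17.0, 20.0 and 19.1 with GNF5. All GNF5 libraries lay below every DMSO library, a 2.37-fold fall (log2 fold change -1.24 ± 0.056, edgeR adjusted p = 2.68e-17). NTS (ENSG00000133636, chromosome 12, 85874295 to 85882992), encoding neurotensin, had 40.0, 33.0 and 37.4 CPM with DMSO and 17.8, 24.7 and 22.8 with GNF5. Its libraries scattered more within each group than those of GRP, and it fell 1.70-fold (-0.76 ± 0.138, edgeR adjusted p = 0.00404). GRP and NTS made up 65.1 ± 1.77% and 30.02 ± 1.82% of the summed level per length of the 13 peptide genes with DMSO. With GNF5 the shares were 58.3 ± 1.86% and 37.4 ± 1.97%, while the sum went from 78.8 ± 3.65 to 37.4 ± 4.24 CPM per kilobase.

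CARTPT and NMB were low and fell further. CARTPT (ENSG00000164326, chromosome 5, 71719275 to 71721048), encoding the cocaine- and amphetamine-regulated transcript peptide, had 88, 123 and 114 counts in the DMSO libraries and 7, 5 and 2 in the GNF5 libraries. The ratio of the summed counts after scaling was 20.9 (95% exact interval 12.3 to 38.7, counting error only), and the gene fell by 4.35 on the log2 scale (SE 0.32, edgeR adjusted p = 1.62e-12). CARTPT reached the filter level through the DMSO libraries alone, so a difference was built into its passing and that p-value is no support. With no filter it was also lower (edgeR adjusted p = 1.51e-38). NMB (ENSG00000197696, chromosome 15, 84655129 to 84658563), encoding neuromedin B, the sister peptide of GRP, had 96, 58 and 79 counts with DMSO and 16, 21 and 20 with GNF5 (log2 fold change -1.87 ± 0.275, edgeR adjusted p = 9.92e-07).

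NPY and GAL rose from near the detection limit. NPY (ENSG00000122585, chromosome 7, 24284188 to 24291862), encoding neuropeptide Y, had 12, 18 and 8 counts with DMSO and 27, 27 and 34 with GNF5 (log2 fold change 1.36 ± 0.36, edgeR adjusted p = 0.00174). GAL (ENSG00000069482, chromosome 11, 68683779 to 68691175), encoding galanin, had 14, 20 and 19 counts with DMSO and 30, 18 and 36 with GNF5 (0.80 ± 0.337, edgeR adjusted p = 0.04). That call was lost in most alternatives, among them no filter (edgeR adjusted p = 0.0642), the DESeq2 test (0.141) and the fit with a replicate block (0.0545), and the alternatives gave it adjusted p-values between 0.0237 and 0.488. It was also lost without DMSO replicate 1 (0.137), DMSO replicate 2 (0.0651), DMSO replicate 3 (0.0665), GNF5 replicate 1 (0.0676) or GNF5 replicate 3 (0.209).

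The other 7 peptide genes were at or near silence. POMC (ENSG00000115138, chromosome 2, 25160853 to 25168903), the precursor of ACTH, had 8, 21 and 10 counts with DMSO and 1, 1 and 0 with GNF5, a ratio of 17.6 (95% exact interval 4.55 to 150.4, counting error only). It did not pass the filter of the main test. With no filter it was lower (edgeR adjusted p = 4.6e-05), as it was with the DESeq2 test (0.00335). In 3 fits with a library left out it reached the filter level through the DMSO libraries alone, so its fall there was built into its passing and is no support. AVP, encoding vasopressin, had 21 counts in all with DMSO and 11 with GNF5, VIP, the vasoactive intestinal peptide, 7 and 3, and TAC1, the precursor of substance P, 1 and 0. CALCB had 8 and 14 counts. CALCA and CALCB, the calcitonin gene-related peptide genes, resemble each other in sequence, so their values are uncertain. CALCA and SST, encoding somatostatin, had 0 counts in all 6 libraries. For SST the level could thus be at most 0.00903 CPM (3 counts of the summed total). For CALCA the likeness to CALCB leaves that limit uncertain.

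Several of these genes are textbook targets of cyclic AMP signalling through the response element TGACGTCA (CRE), and the stretches below show where that element lies in the members that hold it. RefSeq promoters (GRCh38.p14) matched 35 of the 44 genes, and the 250 bases before each gene's start site, using the entry listed first, were searched on both strands. Some RefSeq starts lay inside the gene coordinates given here, by 895 bases for PCSK1, 17814 for CPE, 11724 for DNM1 and 1324 for PAM. The offset was 781 bases for SYT1, 670 for VAMP2, 515 for UCHL1, 364 for NMB and 323 for POMC. Such windows lie within the annotated gene. For the other matched genes the offset was at most 223 bases (CPLX2). The element was present in 6 of the 35 windows (17.1%), beside 482 of 27305 genes in the RefSeq table (1.77%). Its core TGACG, which every full element also contains, was present in 21 of 35 (60%) beside 21.7% of all genes. These windows were richer in CG dinucleotides than the rest (median 20 against 11), and whether that bears on the motif count was not tested. With such textbook targets among the members, some excess of this motif over all genes was built into the choice of genes and motif. The 6 members with the full element did not move together: VGF, PCSK1 and SYN1 rose, CARTPT fell, CHGA did not pass and SST was silent. Capitals mark the element, and exon bases of the annotations were left out except for CHGA, whose element lies in an annotated exon and is shown with 11 bases on either side.
VGF (chr7:101165594-101165708, minus strand, element from base 79 before the start): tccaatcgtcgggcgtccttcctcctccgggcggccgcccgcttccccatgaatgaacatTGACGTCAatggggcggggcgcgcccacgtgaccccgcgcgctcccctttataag
PCSK1 (chr5:96433281-96433385, minus strand, element from base 77): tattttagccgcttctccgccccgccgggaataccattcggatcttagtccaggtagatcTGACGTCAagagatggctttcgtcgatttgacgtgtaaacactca
SYN1 (chrX:47619949-47620076, minus strand, element from base 159): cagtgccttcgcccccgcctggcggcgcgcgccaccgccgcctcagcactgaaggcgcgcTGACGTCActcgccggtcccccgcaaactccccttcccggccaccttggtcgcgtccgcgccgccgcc
CHGA (chr14:92923085-92923114, plus strand, element from base 54): ggcggcaccgcTGACGTCAtttccggggtc
CARTPT (chr5:71719072-71719162, plus strand, element from base 143): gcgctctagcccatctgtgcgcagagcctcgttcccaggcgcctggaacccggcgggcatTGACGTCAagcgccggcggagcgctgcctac
SST (chr3:187670400-187670501, minus strand, element from base 47): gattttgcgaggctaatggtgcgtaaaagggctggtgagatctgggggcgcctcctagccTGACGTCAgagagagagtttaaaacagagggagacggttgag

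GRP and NTS are shown for comparison because both fell and both hold only the core. Capitals mark the core, here on the opposite strand (CGTCA), once in GRP and at 2 places in NTS.
GRP (chr18:59220010-59220134, plus strand, core from base 88 before the start): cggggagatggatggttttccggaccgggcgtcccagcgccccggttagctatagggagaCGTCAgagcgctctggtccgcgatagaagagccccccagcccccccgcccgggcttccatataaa
NTS (chr12:85874045-85874167, plus strand, cores from bases 234 and 192): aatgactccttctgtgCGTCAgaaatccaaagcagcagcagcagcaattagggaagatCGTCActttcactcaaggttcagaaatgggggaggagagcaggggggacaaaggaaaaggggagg
Other motifs were counted without a test. An AP-1 site (TGAGTCA) was found in 5.71% of the members' windows and 4.16% of all, the E-box CACGTG in 11.4% and 6.49%, and the broader E-box CANNTG, which includes CACGTG, in 60% and 62.2%. Among the 16 matched members that rose, 10 held the CRE core, and among the 9 that fell, 4 did.

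Synaptotagmins went in both directions. Of 8 genes of the vesicle membrane and the synaptotagmin family, 5 rose and 3 fell (62.5% and 37.5%, median 0.17). This stands beside 31.0% and 30.7% of all tested genes. For none of the 8 did the groups overlap, as was so for 65.9% of all tested genes. SYT7 (ENSG00000011347, chromosome 11, 61513714 to 61581148), a slow, high-affinity calcium sensor of granule release, had 197, 211 and 207 CPM with DMSO and 109, 119 and 120.1 with GNF5. It fell 1.77-fold (log2 fold change -0.82 ± 0.0383, edgeR adjusted p = 6.01e-17). SYT1 (ENSG00000067715, chromosome 12, 78863993 to 79452008), the fast calcium sensor of synaptic vesicles, had 138, 144 and 139.6 CPM with DMSO and 197, 189 and 187 with GNF5, and rose 1.36-fold (0.44 ± 0.0344, edgeR adjusted p = 5.08e-12).

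SYT4 (ENSG00000132872, chromosome 18, 43267892 to 43277535), an atypical synaptotagmin of dense core granules, had 237, 232 and 240.2 CPM with DMSO and 317, 307 and 309 with GNF5, and rose 1.32-fold (edgeR adjusted p = 1.23e-11). SYT5 (ENSG00000129990, chromosome 19, 55171196 to 55180289) had 6.04, 6.40 and 7.55 CPM with DMSO and 9.45, 10.7 and 12.5 with GNF5, without overlap, and rose 1.63-fold (edgeR adjusted p = 5.27e-07). SYN1, a synapsin that ties vesicles to the cytoskeleton, had 25.3, 26.4 and 27.3 CPM with DMSO and 29.2, 31.0 and 29.03 with GNF5 (0.18 ± 0.0514), and SYT11 rose by a similar amount (0.17 ± 0.0408). SYN1 shares 24.9% of its exon bases with a same-strand gene model that had 3 counts over the 6 libraries.

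Synaptophysin and SYT13 fell. SYP (ENSG00000102003, chromosome X, 49187815 to 49200199), the vesicle membrane protein stained in diagnosis, had 192, 172 and 181 CPM with DMSO and 146, 152 and 153 with GNF5. The DMSO libraries scattered more, yet all lay above the GNF5 ones, and SYP fell 1.21-fold (log2 fold change -0.27 ± 0.0379, edgeR adjusted p = 3.87e-07). SYT13 (ENSG00000019505, chromosome 11, 45240302 to 45286341) was near the filter level, with 32, 41 and 33 counts with DMSO and 11, 16 and 17 with GNF5 (-1.10 ± 0.331, edgeR adjusted p = 0.00517).

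Of the 9 SNARE, docking and priming members, 7 rose and 1 fell (median 0.22), beside 31.0% and 30.7% of all tested genes. All 3 SNAREs rose. VAMP2 (ENSG00000220205, chromosome 17, 8159149 to 8163546), the vesicle SNARE, had 20.6, 21.1 and 20.4 CPM with DMSO and 41.6, 32.7 and 37.3 with GNF5, a 1.80-fold rise (0.85 ± 0.0648, edgeR adjusted p = 4.2e-11). The GNF5 libraries spread widely but none came near the DMSO level, and 12.4% of its exon bases belong also to a same-strand gene model with 5 counts over the 6 libraries. STX1A (ENSG00000106089, chromosome 7, 73699206 to 73719672), a plasma membrane SNARE, had 89.0, 87.2 and 83.2 CPM with DMSO and 113, 109.9 and 113 with GNF5 (0.37 ± 0.0371). SNAP25 (ENSG00000132639, chromosome 20, 10218830 to 10307418), its partner, moved least of the SNAREs, from 80.1 to 81.1 CPM with DMSO and from 85.3 to 92.1 with GNF5 (0.13 ± 0.0384, edgeR adjusted p = 0.0033).

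Among priming factors, UNC13A and CADPS moved apart. UNC13A (ENSG00000130477, chromosome 19, 17601328 to 17688365), which opens syntaxin for SNARE assembly, had 167, 175 and 170.5 CPM with DMSO and 231, 230.2 and 229 with GNF5, and rose 1.35-fold (edgeR adjusted p = 3.54e-12). CADPS (ENSG00000163618, chromosome 3, 62398346 to 62875416), which primes dense core granules in particular, had 114, 116 and 109 CPM with DMSO and 80.7, 86.0 and 84.7 with GNF5, and fell 1.35-fold (edgeR adjusted p = 7.78e-11). RIMS2, an active zone scaffold that binds RAB3, had 70.0, 75.7 and 72.0 CPM with DMSO and 89.8, 95.7 and 91.8 with GNF5 (0.35 ± 0.04). RAB3A, a granule GTPase, rose from 74.4 ± 2.45 to 86.8 ± 2.90 CPM. CPLX2, a complexin that clamps SNAREs, rose from 333 ± 1.84 to 372 ± 7.31 CPM. Its libraries had 335, 333 and 332 CPM with DMSO and 374, 364 and 378 with GNF5. RAB3B had 82.2, 94.4 and 87.0 CPM with DMSO and 86.2, 88.2 and 88.8 with GNF5, and the groups overlapped (edgeR adjusted p = 0.956).

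Of the 3 other neuronal genes, DNM1, a dynamin of membrane retrieval, had 17.1, 16.9 and 16.7 CPM with DMSO and 23.0, 24.8 and 24.6 with GNF5, and rose (0.51 ± 0.0572). UCHL1 had 382, 373 and 379 CPM with DMSO and 355, 378 and 384 with GNF5, and did not pass (-0.02 ± 0.0335, edgeR adjusted p = 0.589). STMN2, a microtubule regulator of growth cones, lay between 44.3 and 48.4 CPM in all libraries and did not pass (0.02 ± 0.0464, edgeR adjusted p = 0.668).

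Other genes of the same pathway, taken from lists chosen by function, gave a mixed picture. The counts of each list stand beside 31.0% of all tested genes that rose and 30.7% that fell. Of 24 tested genes of the other processing enzymes and granule proteins, 13 rose and 3 fell (median 0.15). NUCB2, the precursor of nesfatin, rose 2.46-fold to 168 ± 3.26 CPM, PTPRN, the granule membrane protein IA-2, 2.00-fold to 63.6 ± 2.27, and FURIN, a convertase of the constitutive pathway, 1.82-fold to 76.7 ± 3.57. GNAS, which encodes the stimulatory G protein subunit and a granin-like protein from one locus, fell from 731 ± 23.0 to 509 ± 16.1 CPM, and BAIAP3, a factor of granule maturation, from 9.42 ± 0.265 to 4.37 ± 0.448. ATP6AP1, a proton pump accessory subunit, fell by 0.10 on the log2 scale.

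For the other neuropeptides and hormones, 13 of 39 were tested, of which 5 rose and 3 fell (median 0.03). NPW, neuropeptide W, rose from 43.3 ± 2.26 to 58.8 ± 6.16 CPM. SPX, spexin, rose 1.94-fold and PENK, proenkephalin, 1.36-fold, while NMU, neuromedin U, fell from 7.18 ± 0.547 to 4.82 ± 0.409 CPM. NPPA and NPPC, natriuretic peptide precursors, had log2 fold changes of -0.74 and -0.20.

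Of 38 receptor genes of the 13 peptides, 20 did not pass the filter. Of the 18 tested, 2 rose, 8 fell and 8 were not called (median -0.19), and none passed the test against 1.5-fold. Without GNF5 replicate 1 the number that rose was 1. SORT1, a sorting receptor that also binds neurotensin, fell from 114 ± 3.36 to 96.1 ± 2.77 CPM, VIPR1 from 6.61 ± 0.412 to 4.31 ± 0.286 and CALCRL, the receptor core for calcitonin gene-related peptide, from 4.55 ± 0.212 to 2.99 ± 0.196. RAMP2, a partner of CALCRL, rose from 9.60 ± 0.219 to 11.4 ± 1.02 CPM.

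Among the other SNAREs, docking and priming factors, 19 of 44 tested rose and 19 fell (median -0.05). RAB3IL1, an exchange factor for RAB3, rose 9.39-fold, from 2.33 ± 0.117 to 21.9 ± 1.44 CPM. STX3 and STX4, further syntaxins, rose 1.79-fold and 1.69-fold, and UNC13B, RAB26 and CADPS2 fell (log2 fold changes -0.56, -0.93 and -0.37). CADPS2 thus fell along with its relative CADPS, and UNC13B fell where UNC13A rose. For the other synaptotagmins and their relatives, 9 of 17 rose and 3 fell (median 0.10), with SYTL1 (1.13 ± 0.0565), DOC2A (0.76 ± 0.0506) and SYT14 (0.46 ± 0.0483) higher and SYTL3 lower (-1.05 ± 0.0759). Of 24 vesicle membrane, endocytosis and stathmin genes, 9 rose and 10 fell (median 0.01). STMN3 and STMN1, relatives of STMN2, fell from 146 ± 4.86 to 81.4 ± 1.2 CPM and from 407 ± 3.29 to 284 ± 3.54, DNM2 fell by 0.49 on the log2 scale, and SYNGR3, SYN2 and SYPL1 rose by 0.55, 0.57 and 0.18.

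**Figure D4:**
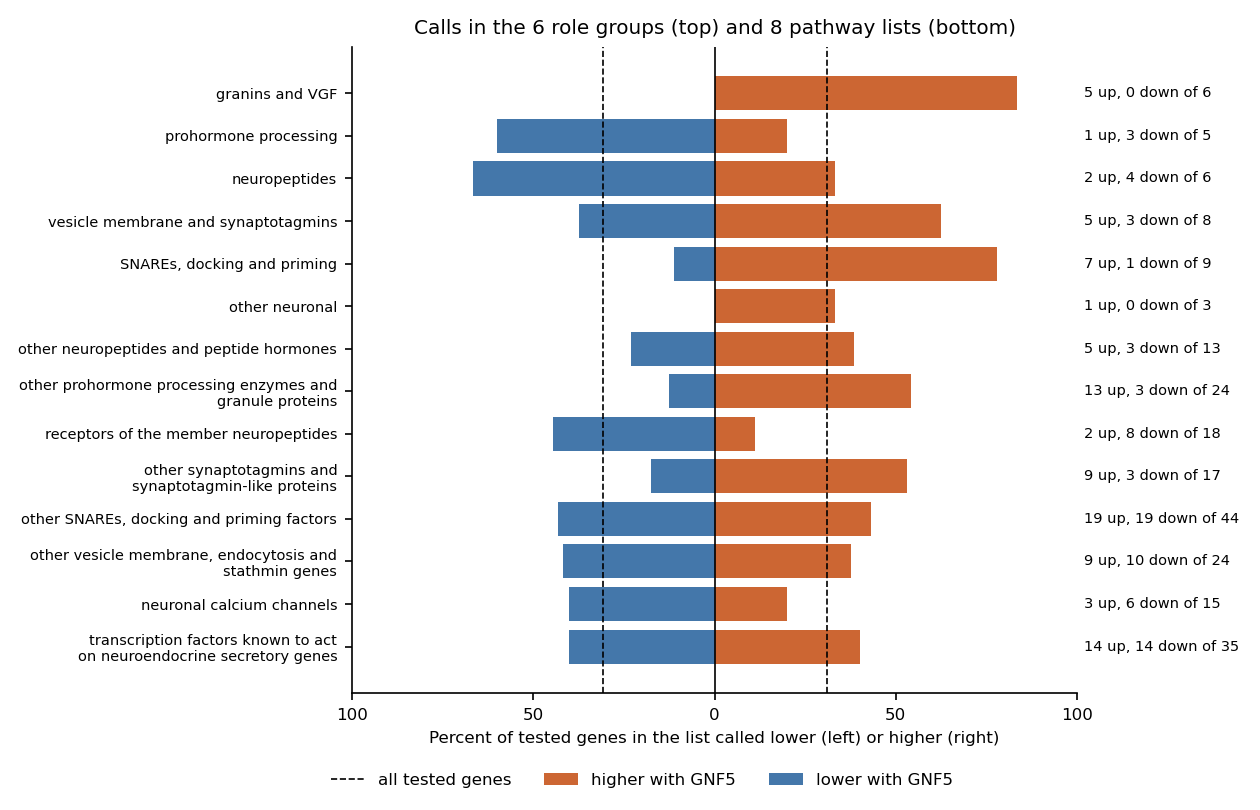
Percent of the tested genes in each list called higher (orange, right) or lower (blue, left) with GNF5, for the 6 role groups of the 44 genes and 8 lists of related genes; dashed lines mark 31.0% and 30.7%, the shares over all 20734 tested genes, and the numbers give the calls. Granins (5 of 6 higher) lie furthest to the right, and tested neuropeptides (4 of 6) furthest to the left.

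Calcium channels and transcription factors completed the survey. Of 15 tested channel genes, 3 rose and 6 fell (median 0.00). CACNA1H, a T-type channel, rose 1.95-fold to 208 ± 1.97 CPM, and CACNB1 and CACNA1C rose by 0.76 and 0.30 on the log2 scale. CACNA1A, the P/Q-type channel that couples to release sites, fell from 288 ± 13.2 to 245 ± 9.03 CPM, CACNA2D1 from 294 ± 6.59 to 237 ± 3.84 and CACNA2D2 from 22.0 ± 1.13 to 17.3 ± 0.978. Of 35 tested factors known to act on secretory genes, 14 rose and 14 fell (median 0.06). ATF4 rose 1.93-fold, ATF3 2.40-fold and CREB5 2.56-fold, all members of the family that binds elements like the CRE. They were picked by lowest p-value and do not stand for the other family members in the list. Whether they act on the genes with a CRE shown above was not tested. RCOR2, a corepressor that REST uses, fell from 206 ± 6.27 to 100.6 ± 1.36 CPM, and SOX2 and ISL1 fell (log2 fold changes -0.59 and -0.59). REST, the repressor of neuronal secretory genes, named here after its values were seen, was too low to test, with 1, 4 and 2 counts in the DMSO libraries and 8, 13 and 11 in the GNF5 libraries.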

How the data were processed

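The authors deposited 1 table of raw gene counts per library, made with featureCounts 1.6.1 per the file headers: read pairs, reverse-stranded mode, exons summed by gene, Ensembl 101 annotation of GRCh38. The submitters' processing notes list further names (GRCh37, HTSeq, DESeq2, STAR, Trim Galore) with no version or role given, and the headers were followed here. Symbols came from a gene name table (60401 of 60671 IDs), and coordinates and exon lengths from the files.

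Counts were tested over the whole table with edgeR 4.0.16 in R 4.3.3 (robust quasi-likelihood test, TMM, default expression filter, no covariate, Benjamini-Hochberg over 20734 genes). The filter asks for 10 counts in a library of median size in at least 3 libraries. The SE was back-calculated from the F statistic. The script was tested on simulated data. Library totals ran from 46148701 to 60697602 counts, so 3 counts equal 0.0496 to 0.0647 CPM. No library was a repeat of another: between replicates, chi-square was 3.02 to 8 times its degrees of freedom.

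Alternatives were DESeq2 size factors, upper-quartile factors, no filter, a filter of 1 CPM in 3 libraries, the DESeq2 1.42.0 Wald test, a test against 1.5-fold, a replicate block, and leaving out each library. For the related lists they were added after seeing the data. The members, gene lists, promoter motifs and tests were chosen with earlier results of these data known. Every member is accounted for. Values in all libraries, or their range, are given for called members with a mean log2 CPM of at least 1 and for the most abundant. Of the called members, up to 4 per direction in each role group were taken by size of change. The low peptide genes and others shown in full were added after their values were seen. From each related list, up to 3 called genes per direction with the lowest p-values at that level are named. Promoters and start sites came from RefSeq (GRCh38.p14), and exons of GENCODE 29 and of the deposited files were left out of the printed stretches.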

Additional observations from a re-analysis of the deposited data

How the results depend on the processing

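The counts of 21 higher and 11 lower genes held within 1.5 times in every alternative except the test against 1.5-fold, which gave 4 and 4. Leaving out 1 library gave 20 to 21 higher and 11 to 12 lower, and the median lay between 0.148 and 0.171 (log2). The fit with a replicate block gave 20 higher and 11 lower, and no call other than that of GAL changed. Same-numbered libraries did not deviate together (r = -0.0157, 0.0159 and 0.00082 over 20734 genes). Such values cannot exclude that these libraries were handled together, so whether the numbers pair them stays unknown. Genes near 0 changed sign without passing. PCSK2 was at -0.00377 with DESeq2 size factors, -0.0237 with upper-quartile factors, -0.00946 with the stricter filter, -0.00321 with the DESeq2 test and -0.0167 to 0.021 without 1 library. STMN2 was at -0.00151 with upper-quartile factors and -0.00448 to 0.0612 without 1 library, RAB3B at -0.0538 to 0.043 and UCHL1 at -0.0425 to 0.013. Apart from the 1.5-fold test, no call of a tested member was gained or lost other than those of GAL and CHGA, given above. POMC, untested in the main comparison, was lower with no filter and with the DESeq2 test; in 3 fits without 1 library it entered only through the DMSO libraries. The stricter filter removed low members and left 19 higher and 9 lower of 33. The cause was not tested. For the 7 untested peptide genes, depth sets the limit, and for CALCA and CALCB their likeness in sequence does so too.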
